A study of Mus musculus with 12 samples.

Results

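EFHD2 encodes EF-hand domain family member D2, also called swiprosin-1, a calcium-binding protein that associates with actin filaments. RbFox1 eCLIP peaks on it were taken as the peaks of the human list that overlap chr1:15409888-15430339 of hg38, a window of 20452 nt, on the + strand. The list has 21 such peaks among 24831 human peaks. All 21 lie in one run, chr1:15428768-15429939, near the 3′ end of the window, and 0 lie in the rest of it. EFHD2 and the run were chosen by their measured values, the number and enrichment of these peaks. These values are therefore given as a description, and no test was made on them.

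RbFox proteins are RNA-binding splicing regulators that recognize (U)GCAUG. Bound in introns near an alternative exon, they promote its inclusion or skipping depending on the side on which they bind. Cytoplasmic forms of RbFox1 also bind the 3′ untranslated regions of mRNAs and affect their stability and translation. EFHD2 is a cytoskeletal adaptor that is abundant in immune cells and in brain, with EF-hand loops that hold calcium. In eCLIP, ultraviolet light crosslinks a protein to the RNA it touches, the protein is immunoprecipitated, and the attached RNA fragments are sequenced.

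The cells were T-REx-293, a human embryonic kidney line, in which RbFox1 is made from a tetracycline-inducible system when doxycycline is added. All of them carried the mouse TrkB-BAC minigene, a version of Ntrk2 driven by the synthetic CAG promoter. The comparison that holds EFHD2 set 2 immunoprecipitated libraries of line 77-5 with doxycycline for 48 h (+Dox) against 2 libraries of untreated 77-5 cells (No Dox). The labels give the dose as 0.5 mg/ml, while the figure legends give it in micrograms per ml. Line 77-5 is 1 clone. The 2 libraries of the deletion line 32-1 and the 6 input libraries gave no value for EFHD2. Nothing in the labels says whether replicates came from separate cultures.

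Each peak has the authors' log2 fold enrichment, the ratio of normalized read counts in +Dox over No Dox, and their −log10 p of a test on read counts. Replicates were merged before deposit. The list has no value of a single library and no read count, so the depth, the replicate error and any interval are unknown. More EFHD2 RNA in the +Dox cells and more RbFox1 on each RNA cannot be told apart from a ratio of immunoprecipitated reads. Neither a human genome nor its annotation was used here, so the exon, intron or untranslated region under each peak and the (U)GCAUG motifs were not analysed, and no sequence is shown. The window was taken as the extent of EFHD2 and was not checked against an annotation.

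The run spans 1172 nt, which is 5.73% of the window. It begins 18880 nt after the 5′ end of the window and stops 400 nt before the 3′ end. In the other 19280 nt of the window there was no peak, and on the − strand there was none in the window at all. Binding in the body of the gene under the limits of the list would not be seen. The list holds no peak with a log2 value below 3 or a p above 0.001. Binding left out by the authors' peak calling or by their merging of replicates would not be seen either. The neighbouring peaks on the + strand were far away and weaker. Upstream, the nearest peak lay at chr1:15212895-15212984, 196903 nt before the window, with a log2 fold enrichment of 4.02. Downstream, the nearest lay at chr1:15531203-15531298, 100863 nt after the window, with 3.37. The members at the borders of the run had 5.09 at its 5′ border and 5.58 at its 3′ border.

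**Figure D1:**
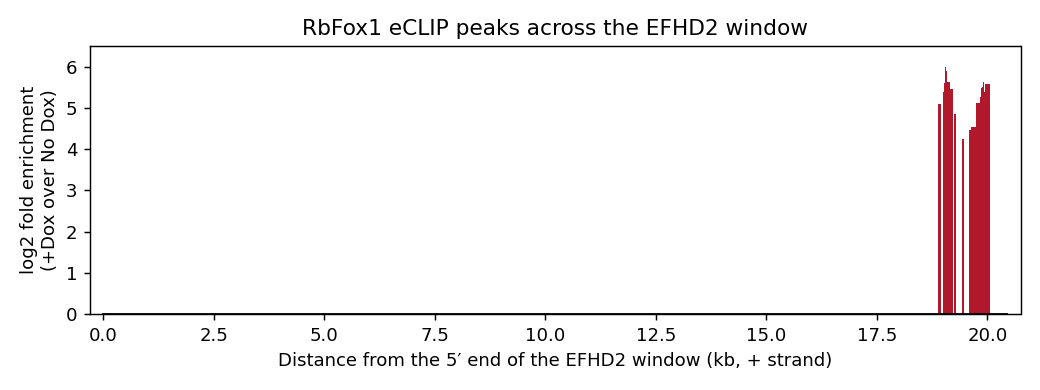
RbFox1 eCLIP peaks across the EFHD2 window, with the distance from its 5′ end in kb on the x axis and the log2 fold enrichment of +Dox over No Dox on the y axis. Each bar is 1 peak, drawn to its width. All 21 peaks stand in the run of 1172 nt that begins 18880 nt into the window.

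The log2 fold enrichment of the 21 peaks ran from 4.25 to 5.98 with a median of 5.47, which is 19.0-fold to 63.2-fold with a median of 44.5-fold. The quartiles were 5.12 and 5.61. For the other 24810 human peaks the median was 3.68 and the quartiles 3.33 and 4.14. The lowest EFHD2 peak was above the upper quartile of the list, and 79.4% of the list was lower than it. Among the 500 human peaks with the highest log2 fold enrichment, 14 were on EFHD2. Of the highest 100, 2 were.

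A log2 fold enrichment of 4 or more, together with a p of 1e-05 or less, was met by 21 of 21 EFHD2 peaks and by 29.0% of the human list. At least 4.5 was met by 19 of them, against 12.9% of the list. At least 5 was met by 17, against 4.33%. At least 5.5 was met by 9, against 1.20%. Since EFHD2 was chosen for high enrichment, these shares are a measure of its place in the list and nothing more.

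The −log10 p was 400 for 18 of the 21 peaks. This is the highest value in the list, and 2.05% of the human peaks have it, so p does not rank these 18. EFHD2 held 18 of the 510 human peaks at 400, which is 3.53% of them. Chromosome 1 has 2372 peaks, 56 of them at 400, and 18 of these 56 were on EFHD2. Peaks that touch can share reads, so the 18 are not separate sites. Among peaks at 400, the median log2 fold enrichment was 5.49 for the 18 on EFHD2 and 3.99 for the 492 elsewhere. The other 3 EFHD2 peaks had a −log10 p of 52.2, 84.6 and 87.7. All 3 exceed the median of the list, 10.2.

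The 21 peaks cover 843 nt of the run, 71.9% of it. Many of them abut, one beginning at the base after the last one ends. Joined in this way they form 7 regions, separated by 6 gaps of 8 to 145 nt, and the regions are numbered here from the 5′ end. Enrichment along the run had 2 high parts, at region 2 and at region 7, with lower peaks between them.

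Region 1 is a single peak of 75 nt at chr1:15428768-15428842, with a log2 fold enrichment of 5.09. After a gap of 33 nt comes region 2, chr1:15428876-15429110, with 6 abutting peaks in 235 nt. It holds the highest peak of EFHD2, 14 nt wide at chr1:15428933-15428946, with a log2 fold enrichment of 5.98. This peak ranked 67 of the 24831 human peaks.

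The other peaks of region 2 were lower the farther they lay from it, on both sides. On the 5′ side, the peak at chr1:15428911-15428932 had a log2 fold enrichment of 5.61. The outermost one, chr1:15428876-15428910, had 5.38 and was one of the 3 with a −log10 p under 400, at 84.6. On the 3′ side the values of log2 fold enrichment were 5.90 at chr1:15428947-15428970, 5.63 at chr1:15428971-15429054 and 5.47 at chr1:15429055-15429110. The lowest and the highest peak of this region differed by 0.60 on the log2 scale.

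The middle of the run was lower. Region 3, chr1:15429130-15429178, had a log2 fold enrichment of 4.84. Region 4, chr1:15429324-15429357, had the lowest value of the gene, 4.25, with a −log10 p of 52.2, also the lowest. It stands alone, with gaps of 145 nt before it and 115 nt after it, which are the 2 longest of the run.

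Region 5 has 2 peaks. That at chr1:15429473-15429527 had a log2 fold enrichment of 4.47 and a −log10 p of 87.7, and that at chr1:15429528-15429633 had 4.52 and a −log10 p of 400. The latter is the widest EFHD2 peak, with 106 nt. Together the 4 peaks of regions 3 to 5 ran from 4.25 to 4.84 on the log2 scale with a median of 4.50, and the 17 others from 5.09 to 5.98 with a median of 5.50. The ranges do not overlap, but the split was made after the values were seen, and without values of each replicate the dip cannot be set against the error.

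Toward the 3′ end the enrichment was higher again. Region 6, chr1:15429642-15429717, had a log2 fold enrichment of 5.12. A gap of 9 nt separates it from region 7, chr1:15429727-15429939, where 9 abutting peaks fill 213 nt. Within region 7 the values began at 5.26 at chr1:15429727-15429738 and 5.47 at chr1:15429739-15429763. The highest was 5.62 at chr1:15429764-15429776.

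The remaining peaks of region 7 stayed close to that value. The 3 that follow it had log2 fold enrichments of 5.50 at chr1:15429777-15429785, 5.59 at chr1:15429786-15429791 and 5.62 at chr1:15429792-15429805. Then came 5.48 at chr1:15429806-15429822 and 5.39 at chr1:15429823-15429838. The last peak, 101 nt wide at chr1:15429839-15429939, had 5.58, above both peaks before it.

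The highest peaks of regions 2 and 7 are 817 nt apart and differ by 0.36 on the log2 scale. They were 3.33-fold and 2.59-fold above the lowest peak of the gene. Neighbouring peaks that abut differed by 0.03 to 0.37 with a median of 0.14 over 14 pairs. Neighbours with a gap between them differed by 0.14 to 0.62 with a median of 0.44 over 6 pairs. Reads that cross the border of abutting peaks can count for both, so the 21 values are not 21 separate measurements of binding.

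**Figure D2:**
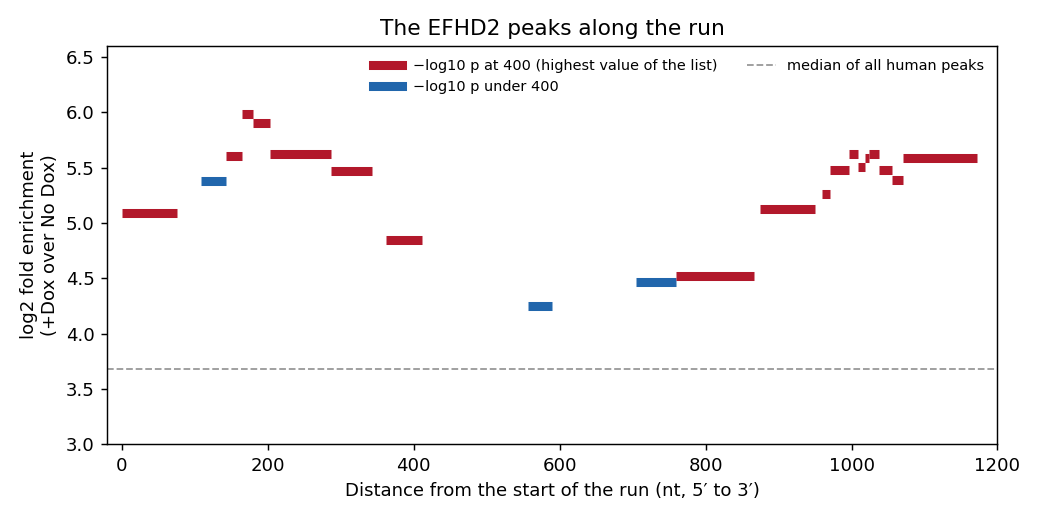
The 21 EFHD2 peaks by distance from the start of the run (x axis, nt) and log2 fold enrichment of +Dox over No Dox (y axis). Each bar is 1 peak over its width, red where the −log10 p is 400 and blue where it is lower, and the dashed line is the median of all human peaks, 3.68. The enrichment is highest at 5.98 in the 5′ part, is lowest at 4.25 in the middle and reaches 5.62 in the 3′ part.

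EFHD2 peaks were narrow beside the human list as a whole. Their width ran from 6 to 106 nt with a median of 25 nt, against a median of 82 nt in the human list. Peaks under 30 nt were 11 of the 21, or 52.4%, and 3.79% of the list. In the 188 other groups of at least 10 peaks, where a group is a set of same-strand peaks at most 500 nt apart, 15.9% of the 2364 peaks were that narrow. Their median width was 58 nt, and so was that of the 492 other human peaks at a −log10 p of 400. Narrow peaks were not particular to EFHD2, whose 21 peaks cover 843 nt. Among other groups with many peaks at 400, 54 peaks on chromosome 9 cover 1986 nt. On chromosome 12, 23 peaks cover 1089 nt, and on chromosome 20, 14 cover 546 nt.

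The 11 narrow EFHD2 peaks had a log2 fold enrichment of 5.26 to 5.98 with a median of 5.59. The 10 wider ones ran from 4.25 to 5.63 with a median of 5.11. In the whole list the medians of peaks under 30 nt and of wider peaks were 3.75 and 3.67. All 11 narrow EFHD2 peaks lie in regions 2 and 7. The 4 wider peaks of these regions had log2 fold enrichments of 5.38 to 5.63, within the range of the narrow ones, and the 6 wider peaks of the other regions had 4.25 to 5.12. Abutting neighbours were 14 of the 20 neighbouring pairs on EFHD2, 70.0%, and 58.8% of the 2176 pairs in the other groups.

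**Figure D3:**
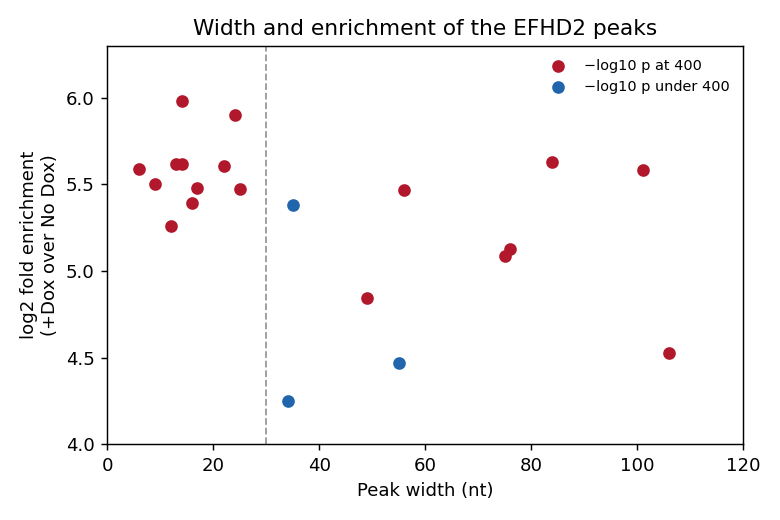
Width (x axis, nt) and log2 fold enrichment of +Dox over No Dox (y axis) of the 21 EFHD2 peaks, with the dashed line at 30 nt. Each point is 1 peak, red where the −log10 p is 400. The 11 peaks left of the line all lie at or above 5.26, and the 10 right of it spread from 4.25 to 5.63.

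The run was set beside the other groups of the list to see where it differs. Among the 2138 human groups of at least 4 peaks, EFHD2 ranked 10 by median log2 fold enrichment and 8 by number of peaks. The median group had 5 peaks and a median log2 fold enrichment of 3.80. On chromosome 1 EFHD2 ranked 1 of 205 such groups by both measures. By its single highest peak it ranked 36 of 2138, and by its lowest peak 67. The mean over the nucleotides covered, which gives wide peaks more weight, was 5.19 and ranked 25.

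EFHD2 was chosen for the number and enrichment of its peaks, so its place by both measures follows from the choice. With peaks counted as listed, no other group had both at least as many peaks and at least as high a median. The 9 groups with a higher median than EFHD2 had at most 19 peaks, with a median of 10. The 3 highest medians were 6.22 in a group of 10 peaks on chromosome 8, 5.85 in 11 peaks on chromosome 19 and 5.78 in 8 peaks on chromosome 20. In the opposite direction, the 7 groups with more peaks than EFHD2 had medians from 3.84 to 5.38. The one at 5.38 has 23 peaks, of which 2 had a −log10 p of 400. The 2 other groups with exactly 21 peaks had medians of at most 4.20. With abutting peaks joined, EFHD2 had 7 regions with a median of 5.09 and ranked 14 of 1156 groups by median.

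With 18 peaks at a −log10 p of 400, EFHD2 ranked 2 among all groups. Abutting peaks can share reads, so these are not 18 separate sites. The group ranked 1 has the most peaks of the list, 54 on chromosome 9, of which 46 are at 400. Its median log2 fold enrichment was 4.64, below that of EFHD2. There were 8 groups with at least 10 peaks at 400, and EFHD2 had the highest median of the 8. The medians of the others ran from 3.18 to 4.64. EFHD2 was chosen for its enrichment, and this set of groups was formed after the values were seen.

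Within the 189 groups of at least 10 peaks, EFHD2 ranked 6 by median enrichment and 18 by density, with 17.9 peaks per kb against a median of 12.2. It was not among the most fully covered, with 71.9% of its span under peaks and a rank of 114. The difference between its highest and lowest peak, 1.73 on the log2 scale, ranked 56, and the median of these groups was 1.53.

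**Figure D4:**
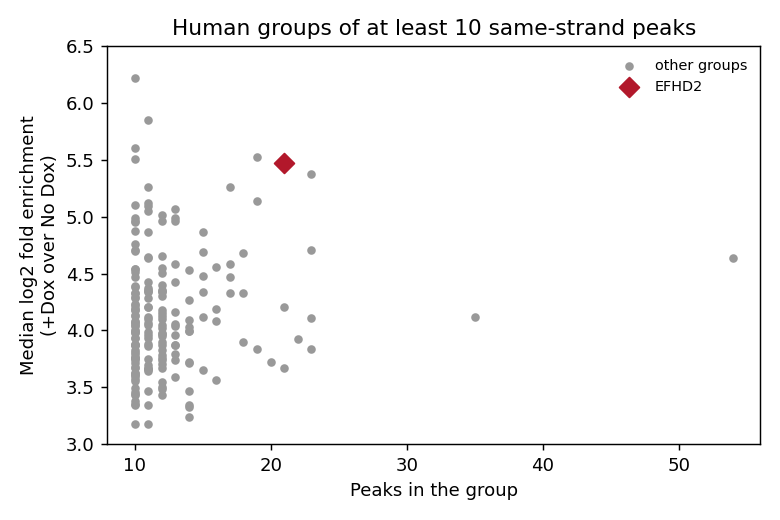
The 189 human groups of at least 10 same-strand peaks at most 500 nt apart, by number of peaks (x axis) and median log2 fold enrichment of +Dox over No Dox (y axis). Each point is 1 group and the red diamond is EFHD2, with 21 peaks and a median of 5.47. The point farthest right is the group of 54 peaks on chromosome 9.

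The same 4 libraries gave 7 peaks on the TrkB-BAC minigene, the transcript the study was built to examine. Their log2 fold enrichment ran from 3.14 to 4.13, and all 21 EFHD2 peaks were above the highest of them. The upper quartile of the whole human list, 4.14, was also above the highest minigene peak. At the median, EFHD2 had 5.47, the minigene 3.78 and the whole human list 3.68. The minigene peaks lie far apart, except for 1 abutting pair, while those of EFHD2 form a run. The amount of either RNA in the cells was not measured in these lists. EFHD2 was chosen for its high values, so the direction of this difference follows from the choice.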

How the data were processed

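eCLIP was done on immunoprecipitated RbFox1. According to the study's methods, the authors removed molecular identifiers with UMI-tools 0.5.1 and adapters with cutadapt 2.7, discarded repeat and rRNA reads, mapped to hg38 and the minigene with STAR 2.6.0c, collapsed PCR duplicates and ran CLIPper. The deposited −log10 p comes from the authors' test of read counts per peak (chi-square with Yates' correction, or Fisher's exact test at low counts). The deposited log2 fold enrichment is the authors' ratio of library-normalized counts. Settings of the replicate merging are not given in the sources used here. A setting that splits a stretch of reads into more peaks raises a count of peaks.

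Python 3.11.15 and pandas 2.3.3 were used. Positions were converted to start at 1, and same-strand peaks at most 500 nt apart were grouped. The grouping was tested only on simulated peaks of a single strand with no gap near 500 nt. This check does not cover harder cases. Libraries were grouped by title, 2 each for +Dox, No Dox and the deletion, with 6 inputs unassigned. EFHD2, the run, the list of EF-hand genes and all settings were chosen with earlier results of these data known. Named were every EFHD2 peak and the 3 groups with the highest median. Other groups, and the width of 30 nt, were chosen after their values were seen. Flanking and EF-hand genes, motifs and gene regions were not analysed here, since no human annotation or genome was used. The list of WT against the deletion holds minigene peaks alone and was not used. No test was run.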

Additional observations from a re-analysis of the deposited data

How the results depend on the processing

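No paired analysis was possible because the list has 1 value per peak after the replicates were merged, so leaving out a replicate was not possible either. The EFHD2 count of 21 peaks was 21 with the stricter threshold, with both strands and with the window extended by 1000 nt. Given the values above, none of these settings could change it. The lowest EFHD2 peak has a log2 value of 4.25 and a −log10 p of 52.2. The window has no peak on the − strand, and the nearest peak outside it is 100863 nt away. A p of at most 0.001 alone could change nothing, since every peak of the list meets it. The count was 7 when abutting peaks were joined, for the gene and for the run. With peaks at most 100 nt apart the run fell into 3 pieces of 8, 1 and 12 peaks, the largest having 12, and at 1000 nt it had 21. The run ranked 10 by median, and 7 of 2272 groups at 1000 nt. At 100 nt the piece of 12 peaks ranked 12 and the piece of 8 peaks ranked 8 of 1582 groups, and the run as a whole had no rank. Its rank was 36 by the highest peak. In settings chosen after seeing the data it was 14 of 1156 with abutting peaks joined, 25 by the mean over nucleotides and 6 among groups of at least 10 peaks. The difference between the run and the rest of EFHD2 had no value, since the rest has no peak, and its alternatives were not run. Those for GCATG and for EF-hand genes were not run either, since neither a human genome nor its annotation was used. The unknown depth limits every value.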
